A study of Mus musculus with 15 samples.

Results

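The regions described here are the outer promoter positions at which histone H3 occupancy was listed as changed in the nucleus accumbens of mice after social defeat. A position belonged to the set when the authors' table put it in the class Promoter3k and it did not lie on chromosome 1. The 3 tables held 1387 such positions, of 47712 listed positions outside chromosome 1 and 83219 in all. They were 511 positions in the comparison of susceptible with control mice, 466 in that of resilient with control mice, and 410 in that of resilient with susceptible mice. Some were listed in more than a single table, so that 1387 entries stood for 1241 distinct positions and named 1145 genes. The rule left out 876 outer promoter positions on chromosome 1, of which 807 were in the susceptible against control table, 795 of them marked Down.

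Susceptible mice were C57BL/6 mice that had met an aggressive CD1 mouse on 10 days and then avoided a social target. Resilient mice had the same 10 days of defeat and did not avoid the target, and control mice were undefeated animals of the same strain. Nucleus accumbens punches of 10 mice were pooled for a replicate, per the labels, and were taken 48 hours after the last defeat. Chromatin was lightly fixed, cut with micrococcal nuclease, which digests DNA between nucleosomes, and immunoprecipitated with an antibody to H3.

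H3 is a core histone, and with its partners it forms the protein spool on which DNA is wrapped as a nucleosome. Active gene starts usually carry a nucleosome-poor stretch flanked by regularly placed nucleosomes, while the regions farther out hold regulatory elements and the first part of the transcribed gene. ATP-dependent remodellers, among them the ACF complex of ACF1 and SNF2H that this series also profiled, slide and space nucleosomes. The nucleus accumbens is a ventral striatal region of reward and motivation, made mostly of medium spiny neurons that receive dopamine and glutamate input.

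Each table gave 1 authors' result per pair of groups: a position, its nearest gene, the distance to the start of that gene and a mark Up or Down. No size of change, p-value, read count or list of unchanged positions came with it, so depth is unknown and nothing below tests animals against animals. The pair of groups, and their order, came from the table names. Up is read here as more H3 in the group named first, Down as less; the files do not say so, and under the other reading each direction below turns round. Bulk tissue was used, so a change of cell makeup and a change within cells cannot be told apart. Intervals given below are exact Clopper-Pearson 95% intervals, which cover counting alone and treat positions as independent, though positions of a gene are not.

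To show what kinds of gene start these positions lie around, the 250 bases before the start are printed for 6 genes to which the results return. They come from RefSeq on GRCm38.p6, a later build than the mm9 of the tables. CpG dinucleotides, the sites of DNA methylation, are in capitals. The H3 positions themselves lie at least 1000 bp from the start, so their own sequence is not in these windows.
Gkn1 (chr6:87350916-87351165, minus strand): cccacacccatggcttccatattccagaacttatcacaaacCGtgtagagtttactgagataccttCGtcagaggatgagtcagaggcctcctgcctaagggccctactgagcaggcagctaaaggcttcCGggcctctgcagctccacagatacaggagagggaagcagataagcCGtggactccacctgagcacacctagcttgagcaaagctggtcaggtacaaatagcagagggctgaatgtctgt
Olfr1346 (chr7:6473862-6474111, plus strand): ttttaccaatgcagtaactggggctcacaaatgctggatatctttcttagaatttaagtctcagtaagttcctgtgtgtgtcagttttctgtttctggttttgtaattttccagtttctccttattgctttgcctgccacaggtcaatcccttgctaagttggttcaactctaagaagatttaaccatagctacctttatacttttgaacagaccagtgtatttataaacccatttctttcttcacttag
Th (chr7:142899996-142900245, minus strand): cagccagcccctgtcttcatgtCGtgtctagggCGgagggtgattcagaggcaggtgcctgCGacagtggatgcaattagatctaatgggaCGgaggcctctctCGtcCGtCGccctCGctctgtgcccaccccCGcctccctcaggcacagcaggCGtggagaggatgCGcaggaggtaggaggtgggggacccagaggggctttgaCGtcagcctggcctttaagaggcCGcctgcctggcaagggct
Slc18a2 (chr19:59260628-59260877, plus strand): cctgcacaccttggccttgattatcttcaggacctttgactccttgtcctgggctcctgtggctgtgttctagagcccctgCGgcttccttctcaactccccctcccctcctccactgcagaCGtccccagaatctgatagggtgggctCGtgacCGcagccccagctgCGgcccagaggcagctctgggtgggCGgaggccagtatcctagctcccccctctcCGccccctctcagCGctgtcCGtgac
Grik2 (chr10:49788755-49789004, minus strand): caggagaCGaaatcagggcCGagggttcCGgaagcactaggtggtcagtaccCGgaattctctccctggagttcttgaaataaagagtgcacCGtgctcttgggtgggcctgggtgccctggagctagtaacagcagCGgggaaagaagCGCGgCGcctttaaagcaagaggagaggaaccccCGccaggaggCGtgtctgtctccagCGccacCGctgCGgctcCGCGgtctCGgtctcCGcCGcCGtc
Emx1 (chr6:85187681-85187930, plus strand): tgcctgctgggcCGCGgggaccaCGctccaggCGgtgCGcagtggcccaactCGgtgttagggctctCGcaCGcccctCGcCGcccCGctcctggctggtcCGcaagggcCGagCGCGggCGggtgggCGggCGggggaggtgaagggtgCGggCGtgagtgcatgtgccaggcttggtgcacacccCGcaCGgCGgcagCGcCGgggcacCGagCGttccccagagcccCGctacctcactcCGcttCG
Olfr1346, an odorant receptor gene, had 0 CpG in its window, and Gkn1, which encodes a secreted stomach protein, had 4. Slc18a2, the vesicular monoamine transporter, had 9, and Th, tyrosine hydroxylase of the dopamine pathway, had 13. Grik2, a kainate receptor subunit, had 20, and Emx1, a homeodomain factor of the developing cortex, had 30.

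Among the genes with an outer promoter position were 3 microRNA genes, of which Mir155 and Mir344-2 had entries in the RefSeq table. Their mature sequences are given with the seed, bases 2 to 8, in capitals, because the seed sets which messages a microRNA pairs with.
mmu-miR-155-5p: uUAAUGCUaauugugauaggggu
mmu-miR-155-3p: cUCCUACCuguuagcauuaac
mmu-miR-344-3p: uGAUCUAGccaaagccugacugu
mmu-miR-344-5p: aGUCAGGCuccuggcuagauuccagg
No seed was shared between these 4 arms. Mir155, which encodes a microRNA of activated immune cells, was marked Down at 1027.5 bp downstream of its start in susceptible against control mice. Mir684-2 was marked Down at 1671.5 bp upstream in the same table. Mir344-2 was marked Up at 2459.5 bp upstream in resilient against control mice.

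The name Promoter3k did not describe upstream promoters alone. The class ran from 1007.5 to 2998.5 bp of a gene start on either side of it. Of the susceptible against control positions, 258 lay upstream and 253 downstream. The resilient against control table had 232 upstream and 234 downstream, and the resilient against susceptible table had 203 upstream and 207 downstream. Of the 694 downstream positions in the 3 tables, 636 lay within the bounds of the named gene and 58, or 8.36%, past its end. These are therefore positions in the flank of a gene start, about equally often inside the gene as before it. In every one of the 1387 entries the listed distance equalled the distance computed from the position, the gene bounds and the strand in the table.

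At the edges of the class, distance alone separated members from neighbours. Comparing susceptible with control mice, the nearest upstream member belonged to Chia, an acidic chitinase gene, at 1017.5 bp and marked Down, while a position of Saa2, a serum amyloid gene, at 990.5 bp was classed nearer and marked Up. The farthest member of that table belonged to Rtkn2, a rhotekin gene, at 2996.5 bp downstream and marked Up, while a position of Galnt14, a glycosyltransferase gene, at 3019.5 bp was classed as gene body and marked Down. Comparing resilient with control mice, the nearest and the farthest downstream members were Slc38a6, an amino acid transporter gene, at 1007.5 bp and Zscan4a, a zinc finger gene, at 2992.5 bp, both marked Down. Comparing resilient with susceptible mice, the nearest downstream member was Gramd1c at 1016.5 bp, marked Down, and the farthest upstream member was Pde6c, a cone phosphodiesterase gene, at 2998.5 bp, marked Up. The members filled the whole window, and no edge was crowded.

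H3 was more often marked Down than Up at outer promoters in each comparison. Of the susceptible against control positions 188 of 511 positions were marked Up and 323 Down, which is 36.8% Up (32.6 to 41.1%). In the whole table outside chromosome 1 the share marked Up was 40.4%, 6716 of 16617 positions. Of the resilient against control positions 147 of 466 were Up and 319 Down, which is 31.5% Up (27.3 to 36.0%), beside 38.3% in the whole table. Of the resilient against susceptible positions 188 of 410 were Up and 222 Down, which is 45.9% Up (41.0 to 50.8%), beside 48.8% in the whole table. The outer promoter share was lower than the table's in each comparison, and in resilient against control mice alone its interval lay wholly below the table's share. That difference was not tested, since the tables hold no replicates.

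Nearer to the start the numbers were small. For susceptible against control mice 69 of 184 positions of the next class inward, Promoter1k, were Up, which is 37.5%. For resilient against control mice 64 of 164 were Up, which is 39.0%, and in resilient against susceptible mice 60 of 136, which is 44.1%. In the innermost class, ProximalPromoter, the Up counts were 23 of 57, 16 of 60 and 24 of 48. The intervals of both classes overlapped those of the outer promoters in each table. Outer promoters made up 3.08% of the positions listed for susceptible against control mice, 2.89% for resilient against control and 2.74% for resilient against susceptible mice.

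**Figure D1:**
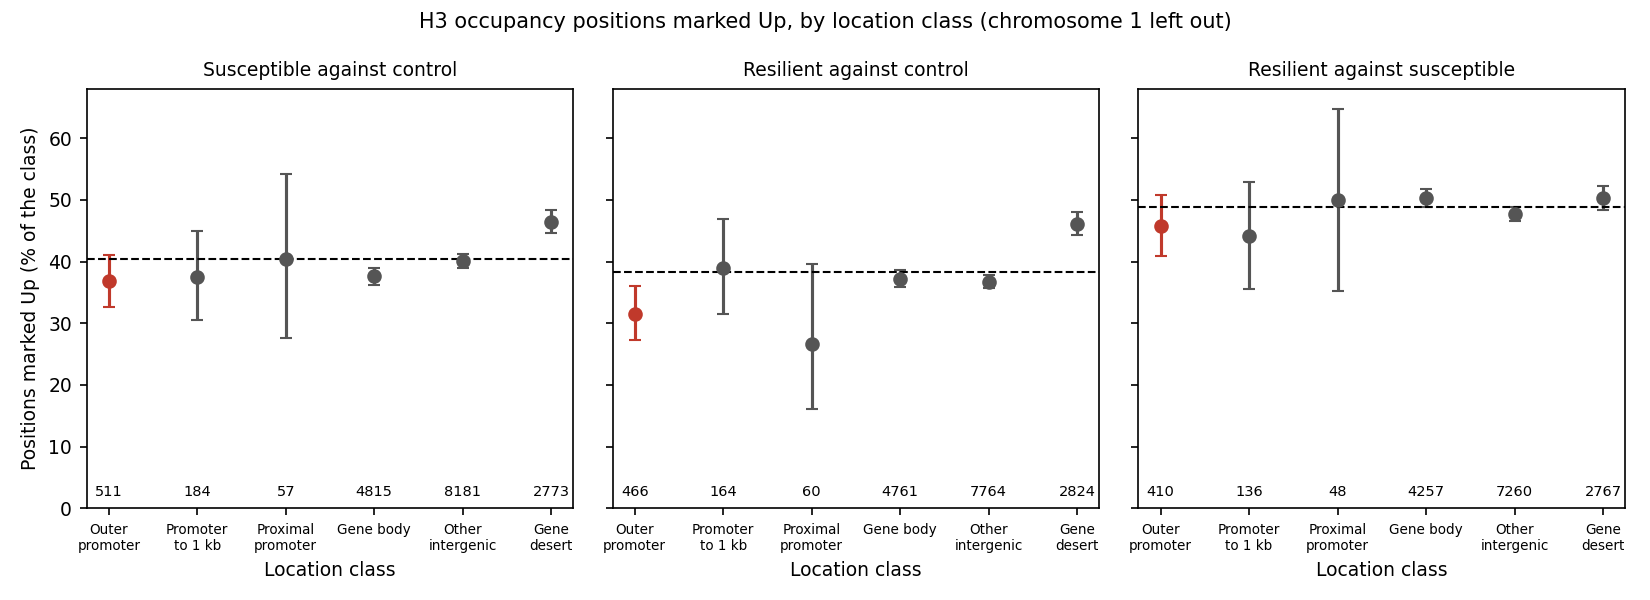
Percentage of listed H3 positions marked Up in each location class, 1 panel per comparison, chromosome 1 left out. Points are shares, bars exact 95% binomial intervals, numbers along the bottom the positions in the class, and the dashed line the share over the whole table. The outer promoter share (red) was 36.8%, 31.5% and 45.9% in the 3 panels from left to right, each below the dashed line.

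No difference in direction between the sides of the gene start could be seen at these counts. For susceptible against control mice, 38.8% of upstream and 34.8% of downstream positions were Up. For resilient against control mice the shares were 32.3% upstream and 30.8% downstream, and in resilient against susceptible mice 45.8% and 45.9%. The intervals of the sides overlapped in each table. The median distance was 2003.5 bp upstream and 2080.5 bp downstream in susceptible against control mice. It was 2011.5 bp and 1977 bp in resilient against control mice, and 2095.5 bp and 2150.5 bp in resilient against susceptible mice.

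Cut into steps of 500 bp, the marks varied most in the resilient against susceptible table. Its positions from 1000 to 1500 bp upstream were 30 Up and 13 Down (69.8% Up, 53.9 to 82.8%), while those from 1500 to 2000 bp upstream were 13 Up and 32 Down (28.9% Up, 16.4 to 44.3%). Downstream, the step from 2000 to 2500 bp was 18 Up and 42 Down, and the step from 2500 to 3000 bp 32 Up and 22 Down. In susceptible against control mice the steps from 2000 to 2500 bp and from 2500 to 3000 bp downstream were 37 Up and 39 Down, and 14 Up and 48 Down. The 8 steps of the resilient against control table ran between 26.7% and 37.1% Up. Steps that stood apart had neighbours on the opposite side of the table's share, and the share neither rose nor fell steadily along the window.

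**Figure D2:**
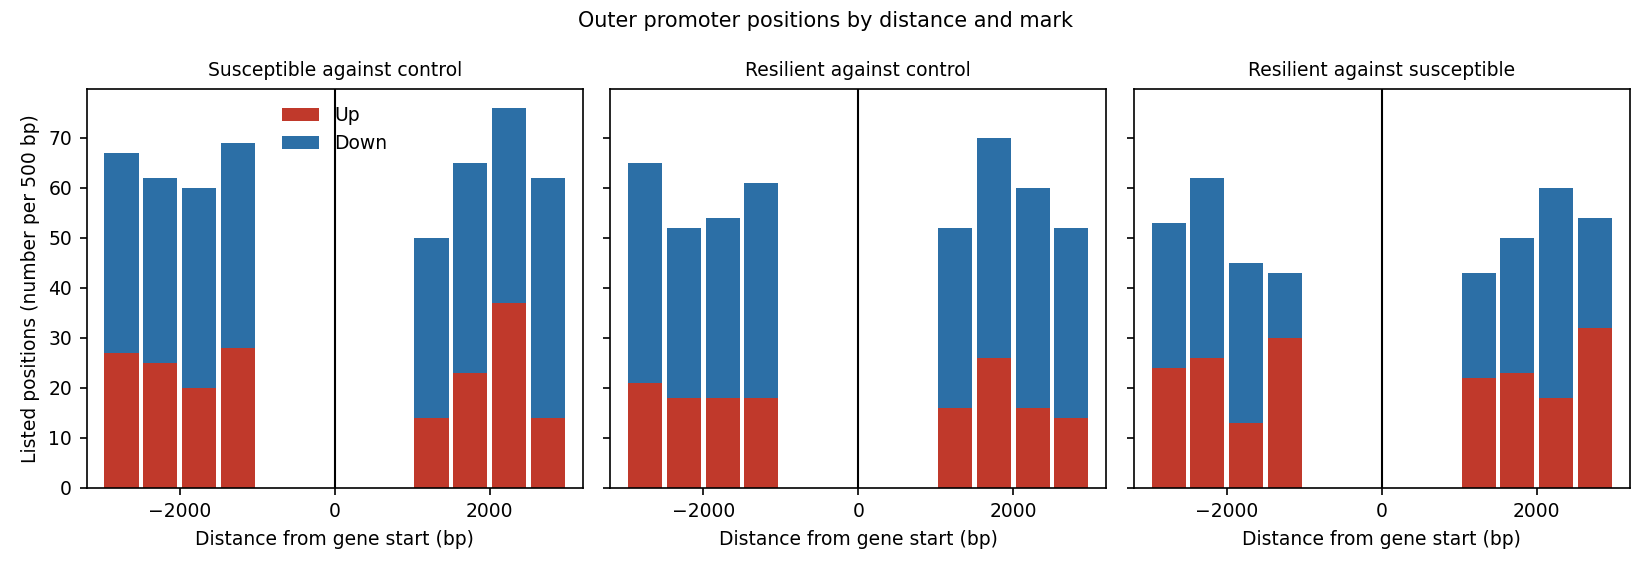
Number of outer promoter positions per 500 bp of distance from the gene start, negative values upstream, split into positions marked Up (red) and Down (blue), 1 panel per comparison. The gap within 1000 bp of the start belongs to nearer classes. Blue exceeds red in every step of the 2 panels against control, and red exceeds blue in 3 steps of the resilient against susceptible panel.

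Most genes held a single outer promoter position in a table. At least 2 positions were listed for 16 genes in susceptible against control mice, 10 in resilient against control mice and 10 in resilient against susceptible mice. Of these, 5, 6 and 3 genes had all their positions marked alike, and 11, 4 and 7 had marks in both directions. The gene with the most was Rn45s on chromosome 17, the precursor of ribosomal RNA, whose 6 positions in resilient against control mice and 4 in susceptible against control mice were all Down, as was its 1 position in resilient against susceptible mice. Its positions lay between 1210.5 and 2980.5 bp downstream, within the transcribed unit. Mouse ribosomal genes stand in many copies of which the assembly holds few, so reads from several copies can pile up there, and these marks are uncertain.

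Repeated marks of a single direction were listed at further genes. Adam6b, of the ADAM protease family, was Up in susceptible against control mice at 1043.5 bp upstream and 2886.5 bp downstream, and Sfi1, a centrosome protein gene, was Up at 1655.5 bp upstream and 1414.5 bp downstream. Plau, the urokinase plasminogen activator, was Down at 2921.5 bp upstream and at 2168.5 bp downstream in resilient against control mice, and its downstream position was also Down in susceptible against control mice. Smo, the transducer of Hedgehog signals, was Down in resilient against control mice at 2744.5 bp upstream and 1515.5 bp downstream. Chst8, a carbohydrate sulfotransferase, was Down at 1911.5 and 2101.5 bp upstream in resilient against control mice and at 1678.5 bp downstream in resilient against susceptible mice. Orm1, an acute-phase plasma protein, was Down in resilient against susceptible mice at 1817.5 bp upstream and 1492.5 bp downstream. All outer promoter positions listed for Plau, Smo, Chst8 and Orm1 were Down.

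Marks of opposite direction also stood side by side. Dpp4, a cell surface peptidase, in resilient against susceptible mice was Down at 1503.5 bp upstream and Up at 2393.5 bp upstream. In susceptible against control mice Chi3l3, a chitinase-like protein of macrophages, was Down at 2329.5 bp and Up at 2819.5 bp upstream. In the same table Gm7120 and Mis18a, a centromere protein gene, had an Up and a Down mark only 110 bp and 140 bp apart, which is less than the length of DNA around a nucleosome.

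Among the 1145 genes, 959 appeared in a single table, 172 in 2 tables and 14 in all 3. The same counts over all genes named in the tables were not made. The 14 were the odorant receptor genes Olfr1346 and Olfr740, Gkn1, Svs3a (a seminal vesicle protein), Arsg (a lysosomal sulfatase), Tbx10 (a T-box factor), Ptpn21 (a tyrosine phosphatase), Rn45s, Pisd-ps1, Pisd-ps3, 4930571K23Rik, A630075F10Rik, Gm13178 and Gm933. Pisd-ps1 and Pisd-ps3 are pseudogenes of phosphatidylserine decarboxylase whose annotated bounds nearly coincide.

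For Olfr1346 every table gave a different position and the same mark. It was Down at 1560.5 bp upstream in susceptible against control mice, at 2170.5 bp in resilient against control mice and at 1120.5 bp in resilient against susceptible mice. Tbx10 was Down at the same position, 1379.5 bp upstream, in both tables against control, and Down at 2610.5 bp downstream in resilient against susceptible mice. Arsg was Up at 2187.5 bp downstream in susceptible against control mice and Down there in resilient against susceptible mice, and Down at 2397.5 bp in resilient against control mice. Gkn1 had Up marks in both tables against control, at 2022.5 bp upstream in susceptible and 2197.5 bp downstream in resilient mice, and its upstream position was Down in resilient against susceptible mice. Svs3a was Down at 2401.5 bp upstream in both tables against control and Up at 2691.5 bp upstream in resilient against susceptible mice. Ptpn21 was Down at 2843.5 bp downstream in both tables against control, and Up at 2856.5 bp upstream of another of its starts in resilient mice, against control and against susceptible mice alike. Rn45s, Pisd-ps3, Olfr1346, Tbx10 and 4930571K23Rik had Down marks alone in all 3 tables, and Gm933 had Up marks alone.

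**Figure D3:**
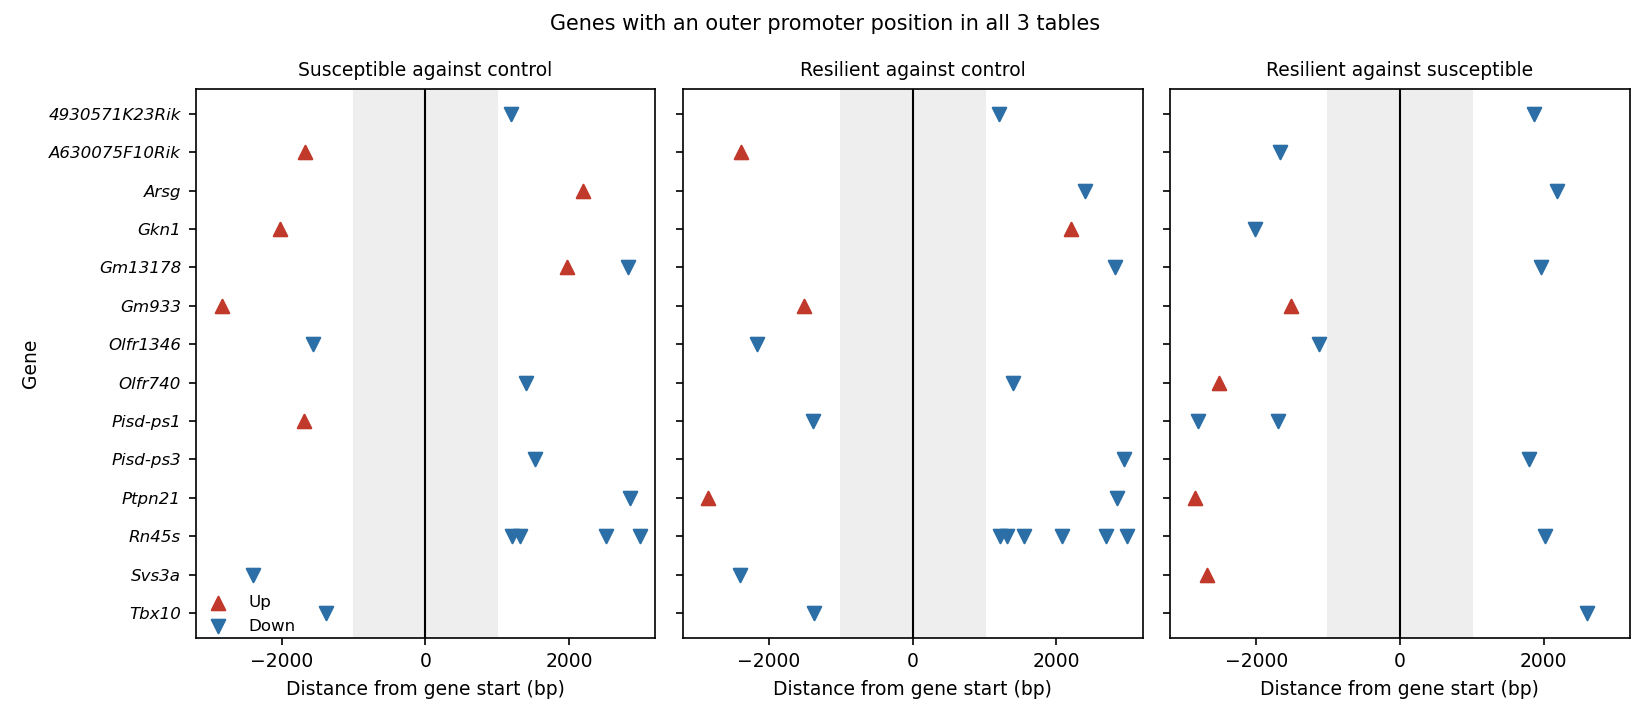
Distance from the gene start in bp, negative upstream, of each outer promoter position of the 14 genes present in all 3 tables, 1 panel per comparison. Red triangles pointing up are marked Up and blue triangles pointing down are marked Down; the grey band within 1000 bp of the start belongs to nearer classes. Olfr1346, Pisd-ps3, Rn45s, Tbx10 and 4930571K23Rik are blue in every panel.

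The exact same position was listed in 2 tables for 146 positions and in 3 for 0. The tables share groups in pairs, so these overlaps follow in part from the design and are given as counts. The same overlaps over all listed positions were not counted, so none is shown to be particular to outer promoters. The tables of susceptible and of resilient mice against control shared 71 positions, 13.9% of the susceptible list and 15.2% of the resilient list, all Down in both. The resilient against susceptible table shared 42 positions with the susceptible against control table, each Up in susceptible mice and Down in resilient against susceptible mice. It shared 33 with the resilient against control table, each Up in both. In all 3 patterns the group in common was the highest: control at 71 positions, susceptible at 42 and resilient at 33. No shared position had the group in common lowest or between the others. Whether this comes from how positions were chosen for listing was not tested.

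Positions lower in both defeated groups than in control included that of Loxl2, which cross-links collagen, at 2609.5 bp downstream. Chst13, a chondroitin sulfotransferase, had its position at 2507.5 bp downstream. Lamc3, a laminin chain, had it at 2098.5 bp upstream, and Psg23, a pregnancy-specific glycoprotein, at 1791.5 bp upstream.

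Positions higher in susceptible mice than in control and lower in resilient than in susceptible mice included those of Arhgap25, a GTPase-activating protein, at 1632.5 bp downstream, and of Ripk4, a kinase of epithelial differentiation, at 2270.5 bp downstream. Rhbdl2, a membrane protease, had such a position at 1115.5 bp upstream, and Arsg had the one described above. Positions higher in resilient mice than in either other group included those of Atp2a3, a calcium pump of the endoplasmic reticulum, at 1718.5 bp upstream, of Smok2a, a sperm motility kinase, at 2538.5 bp downstream, and of Ptpn21. Fgfr3, a fibroblast growth factor receptor of glia, was named after its values were seen: its position at 2820.5 bp upstream was Up in resilient mice against control and against susceptible mice.

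The genes were also read by what they do for accumbens neurons. Of the 205 genes of 11 lists drawn up for this tissue that RefSeq gives a curated messenger RNA outside chromosomes 1 and 18, 8 held an outer promoter position, which is 3.90%, beside 5.08% of all such RefSeq genes. Of 18 medium spiny neuron markers, such as the dopamine receptors and Ppp1r1b, 0 held an outer promoter position, and so did 0 of 17 GABA genes, 0 of 9 astrocyte markers and 0 of 10 microglia markers. Of 34 glutamate receptor and synapse genes, Grik2 alone did, Up at 2178.5 bp downstream in resilient against susceptible mice. Of 26 stress and neuromodulator genes, Th alone did, Down at 1619.5 bp downstream in susceptible against control mice. Th marks dopaminergic cells, whose bodies lie outside the accumbens.

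Of 18 immediate early genes, which respond to neuronal activity, Egr2 alone held a position, Up at 1925.5 bp downstream in resilient against control mice. Of 57 chromatin remodeller and modifier genes, Hdac7, a histone deacetylase, alone did, Down at 1431.5 bp downstream in resilient against susceptible mice. Among glial and vascular markers, Cldn11, a tight junction protein of myelin, was Up at 1279.5 bp upstream in susceptible against control mice, 1 of 12 oligodendrocyte markers. Of 10 endothelial and mural markers, Slco1a4, a transporter of brain vessels, was Up at 1019.5 bp upstream in susceptible against control mice, and Tek, an angiopoietin receptor, was Down at 2688.5 bp upstream in resilient against control mice. Emx1, 1 of 9 markers of cortical excitatory neurons, was Down at 1017.5 bp downstream in susceptible against control mice. A list with few or 0 members is no sign that its genes were unchanged, since unchanged positions were not listed. For the same reason the tables, which hold changes and no levels, cannot check the labelled tissue against its markers.

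A wider group of 33 genes for transmitters, peptides, their enzymes, transporters and receptors was assembled after the values were seen, and is given as a description. It held 40 positions. In susceptible against control mice 7 were Up and 7 Down, in resilient against control mice 5 Up and 7 Down, and in resilient against susceptible mice 7 Up and 7 Down. Up and Down marks were thus about equal in number.

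Between susceptible and control mice Slc18a2, which loads dopamine, noradrenaline and serotonin into vesicles, was Up at 1025.5 bp upstream, and Th was Down at the position given above. Among peptides, Nts, the precursor of neurotensin, was Up at 1079.5 bp upstream, while Calca, the precursor of calcitonin and CGRP, was Down at 2350.5 bp upstream. Among receptors, Avpr1a, for vasopressin, was Up at 2202.5 bp upstream and Adra1b, for noradrenaline, Up at 2242.5 bp downstream. Chrna2, a nicotinic subunit, was Down at 1055.5 bp downstream, and P2rx7, an ATP-gated channel, Down at 1602.5 bp downstream. The positions of Adra1b and of Calcr, the calcitonin receptor, were each listed again, as Down, in resilient against susceptible mice.

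Between resilient and control mice the ligand genes Trh, for thyrotropin-releasing hormone, Ghrl, for ghrelin, and Ntf3, a neurotrophin, were Up at 2660.5 bp downstream, 1992.5 bp downstream and 1069.5 bp upstream. Adcyap1, for the peptide PACAP, was Down at 1410.5 bp downstream. Slc18a3, the vesicular acetylcholine transporter of cholinergic neurons, was Down at 1924.5 bp downstream, and Bche, which breaks down choline esters, was Up at 2504.5 bp upstream. Mchr1, a receptor for melanin-concentrating hormone, was Down at 2456.5 bp upstream. Rxfp3, the relaxin-3 receptor, was Down at 2841.5 bp downstream in both defeated groups against control. Grin3a, an NMDA receptor subunit, was Down in both as well, but at different positions, 2980.5 bp upstream in susceptible and 1660.5 bp upstream in resilient mice.

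Between resilient and susceptible mice Cartpt, the precursor of the CART peptides of the striatum, was Up at 1156.5 bp downstream. Sstr4, a somatostatin receptor, was Up at 1330.5 bp upstream, and Adra1d, an adrenergic receptor, Up at 2860.5 bp upstream. Adra1d was also Up in resilient against control mice, at 1980.5 bp upstream. Glp1r, the GLP-1 receptor, was Down at 1090.5 bp downstream, and Tph1, the tryptophan hydroxylase of peripheral serotonin synthesis, Down at 1744.5 bp upstream.

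Odorant and pheromone receptors were the named receptor family with most positions. Olfr and Vmn genes accounted for 108 of the 1145 genes, or 9.43%, and for 48, 47 and 37 positions in the susceptible against control, resilient against control and resilient against susceptible tables. Among genes with a curated messenger RNA outside chromosomes 1 and 18 they were 10.9% of those with an outer promoter position and 7.41% of all. These genes serve smell and pheromone detection and are near-identical to their neighbours in places, so reads can be shared between copies. Of their positions 21 of 48, 20 of 47 and 19 of 37 were Up, which is 43.8%, 42.6% and 51.4%. The remaining outer promoter positions were 36.1%, 30.3% and 45.3% Up. The family's share was higher in each table, a difference not tested. Among genes with a position within 1000 bp of the start the family made up 15.9%.

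Immune genes were taken by symbol: histocompatibility (H2), interferon, interleukin, numbered Cd, chemokine, chemokine receptor and defensin names. Like outer promoter positions as a whole, they were more often Down than Up against control. All outer promoter positions were 63.2% Down in susceptible and 68.5% Down in resilient against control mice. Of 15 positions of these symbols in susceptible against control mice 3 were Up, and of 9 in resilient against control mice 0 were Up. Other immune genes fell outside the symbols, so these counts do not cover immune genes as a whole. Among those left out, Nlrp1b was Up and Mpo Down in both tables against control. C5ar1, also left out, was Up in susceptible and Down in resilient against control mice. In resilient against susceptible mice 7 of 12 were Up. The Down marks in susceptible mice included Il2 at 2685.5 bp upstream, Il1rn, the interleukin-1 receptor antagonist, at 2721.5 bp downstream, and Ccl22, a chemokine, at 2648.5 bp downstream. Ccr2, a chemokine receptor of monocytes, was Up at 1330.5 bp downstream. H2-Q1, a class I histocompatibility gene, was Down at 2009.5 bp downstream in resilient against control mice. Cd86, a costimulatory ligand, was Up at 2348.5 bp upstream in resilient against susceptible mice. Several of the family are defensins, whose cluster holds near-identical copies.

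Ion channel subunits differed in number between tables, with 4, 8 and 1 positions. Of the 8 in resilient against control mice 7 were Down, beside 68.5% Down among all outer promoter positions there, and so few positions show no direction of the family. The Down marks included the pacemaker channels Hcn2, at 1546.5 bp upstream, and Hcn4, at 2193.5 bp downstream, the potassium channels Kcnj5, at 1850.5 bp downstream, and Kcns3, at 2927.5 bp downstream, and the heat-gated channel Trpv1, at 1581.5 bp downstream. Kcne3, an accessory subunit, was Up at 2479.5 bp downstream in resilient mice against control and against susceptible mice. Kcnv2, a modifier of potassium channels, was Down at 1486.5 bp upstream in both defeated groups against control. Solute carriers were 3 Up of 11 in susceptible against control mice, 1 Up of 7 in resilient against control mice and 3 Up of 5 in resilient against susceptible mice.

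Smaller families held too few positions to set their marks apart from the 36.8%, 31.5% and 45.9% Up of all outer promoter positions, and are given as counts. Cytochromes P450, enzymes of steroid and drug metabolism, had 3 Up of 10, 0 of 2 and 0 of 4. Cyp7a1, the rate-limiting enzyme of bile acid synthesis, was Down at 2546.5 bp downstream and Cyp19a1, which makes oestrogens, Down at 1027.5 bp downstream, both in susceptible against control mice. Homeobox genes, which pattern the embryo, had 0 Up of 4, 1 of 3 and 1 of 6. Pax6 was Down at 2319.5 bp downstream in susceptible against control mice and Hoxb1 at 2119.5 bp upstream in both defeated groups. Genes for ubiquitin enzymes had 5 Up of 7 and 2 of 3 against control and 0 positions in resilient against susceptible mice. The kinase pattern held 7 positions, all Down, among them Stk3, of the Hippo pathway, at 1770.5 bp upstream and Mapk15 at 2173.5 bp downstream, each in both tables against control. That pattern, made from gene symbols, also took in Cdkn2b, which inhibits kinases. It missed the kinase genes Ripk4 and Smok2a named above, each of which held Up as well as Down marks. The 7 Down marks are thus no direction of kinase genes as a whole. Predicted models named Gm or Rik gave 33 Up of 84, 15 of 55 and 33 of 79 positions.

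**Figure D4:**
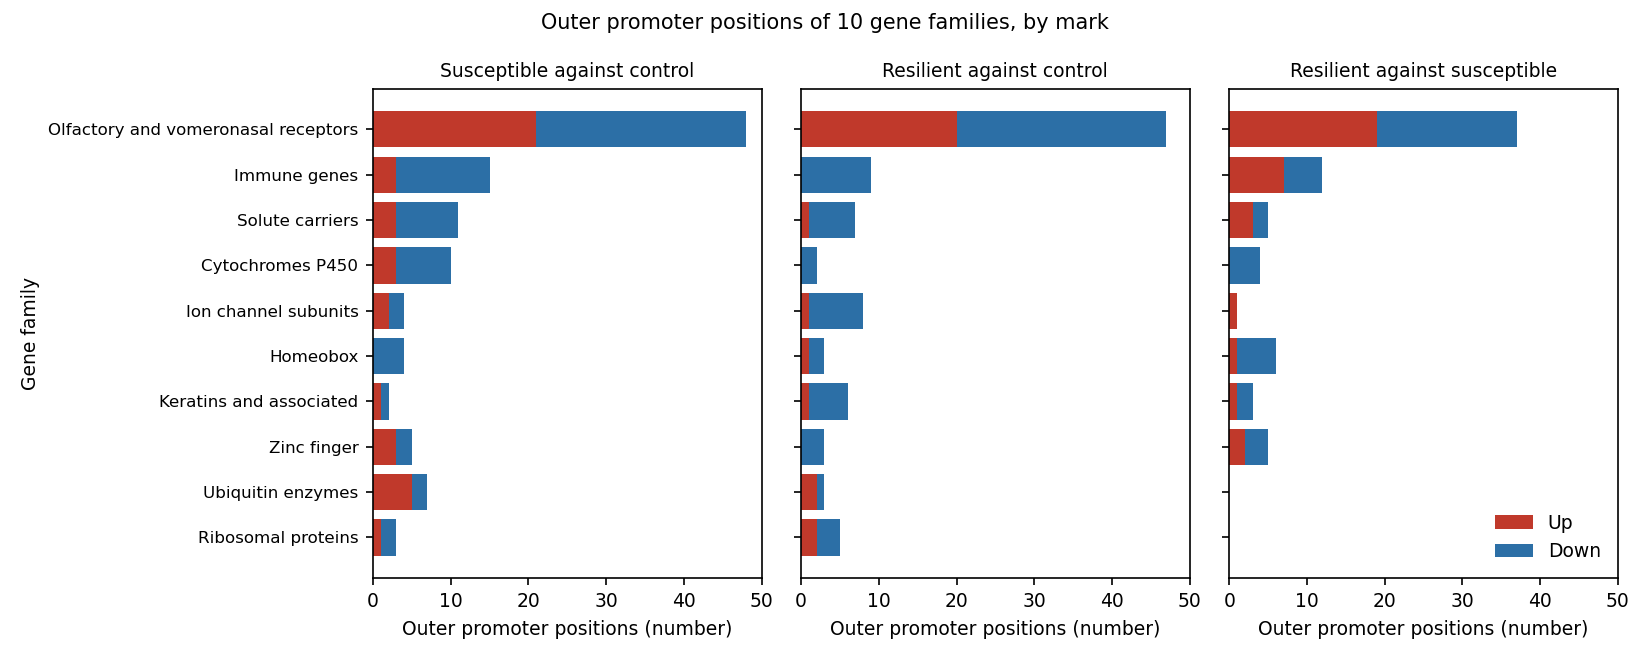
Number of outer promoter positions of 10 gene families, split into positions marked Up (red) and Down (blue), 1 panel per comparison. Families were taken by gene symbol. Odorant and vomeronasal receptors have the longest bars, 48, 47 and 37 positions. Immune genes, as taken by symbol, are all blue in the resilient against control panel.

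The named genes were shorter than those with positions in the gene body. The median length of the 1145 genes was 12271 bp, against 46148 bp for genes with a position in the gene body and 9159 bp for genes with a position within 1000 bp of the start. A position more than 3000 bp into a gene is classed as gene body, which short genes cannot hold.

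The gene starts flanked by these positions were lower in CpG than those of genes with a position in the gene body. The CpG content of the RefSeq window from 250 bases before to 50 after the start was computed as observed over expected, which is 1 where CpG is as frequent as its bases allow. A window was found for 794 of 992 genes with a curated messenger RNA outside chromosomes 1 and 18, which is 80.0%. Their median was 0.29, against 0.62 for genes with a position in the gene body and 0.58 for RefSeq genes with a curated messenger RNA. A ratio of 0.6 or more was reached by 26.6%, against 51.9% and 48.5%. Genes with an Up mark had a median of 0.30 and genes with a Down mark 0.29. The low value was thus common to both directions. Windows were found for 76.2% of all 1145 genes, too few to extend the count to them. For genes with a position within 1000 bp of the start (78.8%) and for outer promoter genes other than odorant and vomeronasal receptors (79.0%) too few windows were found as well, so that comparison is void. A low ratio is thus not shown to be particular to outer promoters.

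**Figure D5:**
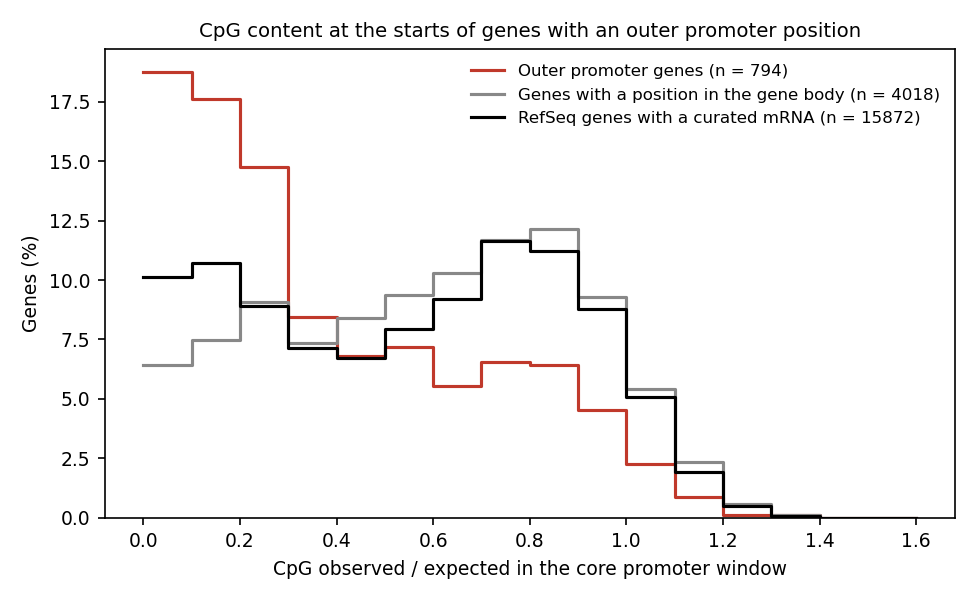
Distribution of the CpG observed over expected ratio in the window around the gene start, in percent of genes per step of the ratio. The red line shows 794 genes with an outer promoter position, the grey line 4018 genes with a position in the gene body and the black line 15872 RefSeq genes with a curated messenger RNA. The red line is highest at the lowest ratios, while the grey and black lines peak again at high ratios.

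Chromosome 7, rich in odorant receptor clusters, held 60, 73 and 52 of the positions in the 3 tables, which is 11.7%, 15.7% and 12.7%, beside 8.35%, 7.69% and 8.30% of all positions of the tables. Olfr and Vmn genes gave 15, 18 and 15 of these. Outer promoters made up 4.33%, 5.89% and 4.19% of all positions on chromosome 7 in the 3 tables. On chromosome 11 they made up 4.72%, 4.76% and 4.74%, and on chromosome 19 they made up 4.82%, 3.57% and 3.01%. The whole tables stood at 3.08%, 2.89% and 2.74%, so chromosome 7 did not stand alone. The X chromosome held 1, 2 and 3 positions.

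The ACF1 data of the series gave a second readout at the same places. The authors' files split the genome into states in steps of 200 bp, without a score. They do not say which state is bound, so the rarer state was taken as ACF1 segments. Within 1000 bp of a segment of the susceptible list lay 15 outer promoter positions of susceptible against control mice, which is 2.94%, beside 1.64% of the whole table. The resilient against control table had 19, or 4.08%, beside 1.64%, and the resilient against susceptible table had 15, or 3.66%, beside 1.76%. With the control list the shares were 2.54% beside 1.31%, 3.22% beside 1.21% and 2.20% beside 1.33%. With the resilient list they were 2.54% beside 1.2%, 3.22% beside 1.11% and 2.20% beside 1.29%. The share of 2.20% rested on 9 positions with either list, and its interval, 1.01 to 4.13%, covered the table's share. The other intervals began above the table's share, at the closest 1.65% beside 1.64%. All of them treat positions of a locus as independent, and no difference was tested.

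Several of the positions near ACF1 came from the same loci. Within 1000 bp of a segment of any of the 3 lists lay 16, 19 and 17 outer promoter positions in the 3 tables. Rn45s gave 11 of them over the 3 tables and Pisd-ps1 4, while Sfi1, Smok2a, Pisd-ps3 and Gm21276 gave 3 each. Without Rn45s, 11, 13 and 14 positions remained near the susceptible list, which is 2.17%, 2.83% and 3.42%, while the tables without it stood at 1.60%, 1.58% and 1.74%. Reads of near-identical copies cannot be placed with certainty. Copies were not scored for these loci, and the part of such reads in the ACF1 and H3 lists was not tested.

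Other H3 positions of the same genes did not follow the outer mark closely. Of the 493 genes of the susceptible against control table, 111 held further positions in the gene body or nearer the start, 226 in all. Where the outer mark was Up, 42 of 80 further positions were Up, which is 52.5%, and where it was Down, 49 of 136, which is 36.0%. Sfi1 alone gave 33 of the further positions, 22 of them Up, and without it the first share was 42.6%. In resilient against control mice the shares were 23.1% and 32.0%, from 12 of 52 and 39 of 122 positions; without Sfi1, whose 22 further positions were all Down there, the first count was 12 of 30. The resilient against susceptible counts were 20 of 41 and 41 of 82. Grik2, Up at its outer position in resilient against susceptible mice, had 2 further positions in that table, both Up. Loxl2, Down at its outer position in susceptible against control mice, had 6 further positions Down and 2 Up. Adarb2, an RNA-editing enzyme homologue, had 5 Up and 4 Down beside its outer Down mark in resilient against susceptible mice.

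Nucleosome shifts in outer promoters were listed by the authors in tables of their own. The shift tables listed 18, 12 and 12 shifts in the class outside chromosome 1, of 60 to 80 bp in either direction. The genes of 5, 5 and 6 of these had an outer occupancy position in any table. In the same table this held for 0, 2 and 1 shifts, those of Rn45s and Sfi1 in resilient against control mice and of Gm17019 in resilient against susceptible mice. Shares over all listed shifts were not computed, so these counts are not shown to be low or high for the class.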

How the data were processed

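H3 ChIP-seq after micrococcal nuclease digestion was deposited as 3 tables of occupancy positions and 3 of nucleosome shifts, 1 per pair of groups, and ACF1 ChIP-seq as 3 segment files. CASAVA 1.8.2 and mm9 are named by the submitters' processing notes. For the aligner and the callers of positions and segments, names were not given in the sources used here. The deposited values used were the authors' position, class, Up or Down mark, shift in bp and signed distance to the gene start, which is a score with no fixed range. SNF2H and input libraries were not analysed here. Depth is unknown.

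Members, gene lists and named genes were chosen with earlier results of these data known. Per table the text names the genes with most outer positions, those in all 3 tables, list genes, the exact positions in 2 tables whose genes hold most positions, and the nearest and farthest; family examples and the wider transmitter group were picked after their values were seen. Counts, shares with Clopper-Pearson intervals and overlaps were computed with pandas 2.3.3, numpy 2.4.6 and scipy 1.17.1 under Python 3.11.15, drawn with matplotlib 3.10.9, and tested on simulated data. The labels speak of replicates, but each table holds 1 result, so no test between animals could be made. Of the 1145 genes, 1127 matched RefSeq by accession and 11 by symbol. Alternatives covered chromosomes, distance windows, merging of neighbouring positions, gene models, loci and ACF1 distance. Positions are 1-based on mm9 and promoter windows on GRCm38.p6, and the builds were never combined.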

Additional observations from a re-analysis of the deposited data

Results flagged for a closer look

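Of 90 genes with an outer promoter position in both tables against control, 9 had opposite marks in the 2 tables, and the difference was not tested. The 2 tables shared 71 exact positions, all Down in both, and a gene holding such a position could not count as opposite. The 9 of 90 are therefore no measure of how rare opposite marks were. Up in susceptible and Down in resilient mice were A1bg, Arsg, C5ar1, Car1, Gm11564, Olfr288 and Pisd-ps1, and Down in susceptible and Up in resilient mice were Ceacam3 and Ly6k. The 2 positions of a gene were 160 to 28700 bp apart, and at most 500 bp apart in 5 of the 9. C5ar1, the receptor for the complement fragment C5a, was Up at 1222.5 bp upstream in susceptible and Down at 2672.5 bp upstream in resilient mice. Ceacam3 was Down at 2073.5 bp downstream in susceptible and Up at 1613.5 bp downstream in resilient mice.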

How the results depend on the processing

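Of 72 values recomputed under alternatives, 64 stayed within the spread or limit set for them. With chromosome 1 included, the susceptible against control table had 1318 outer promoter positions and 15.2% of them were Up. Distances up to 2000 bp alone gave 244, 237 and 181 positions in the susceptible against control, resilient against control and resilient against susceptible tables, and distances beyond 2000 bp gave 267, 229 and 229, since each window holds part of the class. Within those windows the share of Up ran from 30.1% to 48.6%, and under the remaining alternatives from 30.8% to 46.8%. They left the number of positions in 2 tables between 36 and 71, and the positions near ACF1 between 9 and 20 in a table. A stricter threshold was not run, as the tables hold no score. No paired analysis was possible because each pair of groups has 1 deposited result. The unknown depth and the missing list of unchanged positions limit every share.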
